A study of Mus musculus with 15 samples.

Results

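The miR-15/16 family of the mouse was followed through 5 microRNA hairpins, mmu-mir-15a, mmu-mir-15b, mmu-mir-16-1, mmu-mir-16-2 and mmu-mir-195a (written below without the prefix), in miR-302 knockout embryos and in wild-type embryos. The 5 were chosen by name, as the hairpins of that family in the deposited table, out of 1226 hairpins listed there. Small RNA was sequenced in 15 libraries of C57BL/6 mice: miR-302 knockout (KO) and wild-type (WT) whole embryos at E7.5 (2 and 2 libraries), KO and WT cells of the Wnt1-Cre neural crest lineage at E8.5 (4 and 3), and KO and WT Sox10-positive neural crest cells at E9.5 (2 and 2). The cells of both later stages were sorted, and the WT cells at E8.5 carried Wnt1-Cre as the KO cells did. Ages are in days of embryonic development. The labels give neither the miR-302 allele nor the number of embryos in a library. Stage and cell source changed together and cannot be told apart.

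MicroRNAs pair through their seed, the bases near the 5′ end, with sites in target mRNAs and lower the output of those mRNAs. The miR-15/16 family is known for restraining the cell cycle through targets such as cyclin D1, cyclin E1 and Cdk6, and for repressing the survival factor Bcl2. In humans the miR-15a and miR-16-1 locus is often deleted in chronic lymphocytic leukaemia, and in mice miR-195 has been tied to the halt of heart muscle cell division after birth. The miR-302 family that the KO targets has a different seed and is abundant in pluripotent cells and the early embryo.

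The mature 5p sequences are shown because they define the family and explain why the values of mir-16-1 and mir-16-2 are read together. All 5 hairpins matched a RefSeq entry of GRCm38.p6, and capitals mark bases 2 to 8, the seed. The last sequence is miR-322, a relative with the same seed.
miR-15a-5p: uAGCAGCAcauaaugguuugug
miR-15b-5p: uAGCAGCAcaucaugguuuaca
miR-16-5p: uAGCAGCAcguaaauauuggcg
miR-195a-5p: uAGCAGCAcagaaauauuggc
miR-322-5p: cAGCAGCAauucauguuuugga

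The 5 hairpins give 4 distinct mature sequences with identical bases 1 to 9. Compared position by position from the 5′ end, miR-195a shares 19 of 21 bases with miR-16, miR-15a shares 16 of 22 and miR-15b shares 14 of 22. The same seed occurs in 11 of the 1738 mature entries of the RefSeq table, the 5 family members and 6 others (miR-322, miR-497a, miR-195b, miR-6342, miR-6353 and miR-6419). The pair mir-16-1 and mir-16-2 encodes 1 and the same mature miR-16, so a read of the 22 mature bases cannot be placed at either locus. The hairpins themselves differ, as shown here with mature miR-16 in capitals.
mir-16-1: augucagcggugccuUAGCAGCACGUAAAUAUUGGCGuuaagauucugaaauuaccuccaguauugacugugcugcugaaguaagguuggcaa
mir-16-2: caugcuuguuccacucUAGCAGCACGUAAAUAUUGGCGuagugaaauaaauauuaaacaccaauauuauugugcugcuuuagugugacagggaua

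Mature miR-16 lies at bases 16 to 37 of the 93-base mir-16-1 hairpin and at bases 17 to 38 of the 95-base mir-16-2 hairpin. The 3p arms agree at 12 of 22 positions, so reads of those arms can be told apart. The deposited table counts per hairpin, with no arm, and the rule that divided reads of the shared sequence between the copies is not given in the labels.

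The family is spread over 3 loci of GRCm38 (GENCODE M21 annotation). mir-15a (chr14:61632027-61632110, minus strand) and mir-16-1 (chr14:61631880-61631972, minus strand) lie 54 bases apart within Dleu2, a long non-coding RNA gene. mir-15a was intronic in all 8 Dleu2 transcripts that span it, and mir-16-1 fell in an exon of 1 of 9. mir-15b (chr3:69009772-69009835, plus strand) and mir-16-2 (chr3:69009902-69009996, plus strand) lie 66 bases apart in an intron of all 5 spanning transcripts of Smc4, which encodes a condensin subunit. mir-195a (chr11:70235042-70235135, plus strand) overlaps no annotated gene and lies 241 bases from mir-497a, its partner in the cluster.

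Library depth ran from 1706 reads (E8.5 KO replicate 3) to 323389 reads, and by group from 24084 to 52362 reads in KO and 133638 to 190416 in WT at E7.5, 1706 to 46082 in KO and 24465 to 179772 in WT at E8.5, and 24184 to 39667 in KO and 136665 to 323389 in WT at E9.5. Reads and depth here are those listed under hairpins, and the number sequenced per library is not given. Values are the authors' normalized counts, reads divided by 1 size factor per library, and 1 read was worth 0.147 to 19.3 of them. The 4 targeted hairpins mir-302a to mir-302d summed to 13.2 to 31.0 in KO and 4001 to 14226 in WT at E7.5, 0 to 19.3 in KO and 3875 to 6522 in WT at E8.5, and 75.4 to 148 in KO and 338 to 466 in WT at E9.5. The targeted hairpins were thus lower in KO than in WT at each stage but were still read in KO, most at E9.5. One library, E7.5 KO replicate 1, stood apart from the other E7.5 libraries. Its mir-92a-1 made up 1.12% of reads against 9.11% to 9.96% in the other 3, its mir-182 made up 18.3% against 3.29% to 9.11%, and it alone was lowest of the 4 for 122 of 299 tested hairpins, against 48 to 67 for each of the others. Results whose size rests on it are given with and without it.

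The family held a small share of the hairpin reads of each library, and most of that share was miR-16. The mature sequences are 21 or 22 bases long, so levels are compared between hairpins as counts. Over the series mir-16-2 had 7486 reads, mir-16-1 6255, mir-15b 1113, mir-15a 318 and mir-195a 115. The 2 miR-16 hairpins together made up 85.8% to 95.5% of the family's reads in each library. The 5 hairpins together held 0.241% (95% interval 0.183% to 0.311%, 58 of 24084 reads) and 1.34% of all hairpin reads in the KO embryos at E7.5, against 0.653% and 1.05% in the WT embryos. At E8.5 they held 1.30%, 1.82%, 2.81% and 2.52% in the KO cells and 1.21%, 1.72% and 0.972% in the WT cells. At E9.5 they held 1.13% and 1.38% in the KO cells and 1.19% and 0.998% in the WT cells. KO and WT overlapped at each stage. Intervals are exact binomial (Clopper-Pearson) and cover counting error only. The 2.81% comes from 48 reads of the shallowest library (2.08% to 3.71%).

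**Figure D1:**
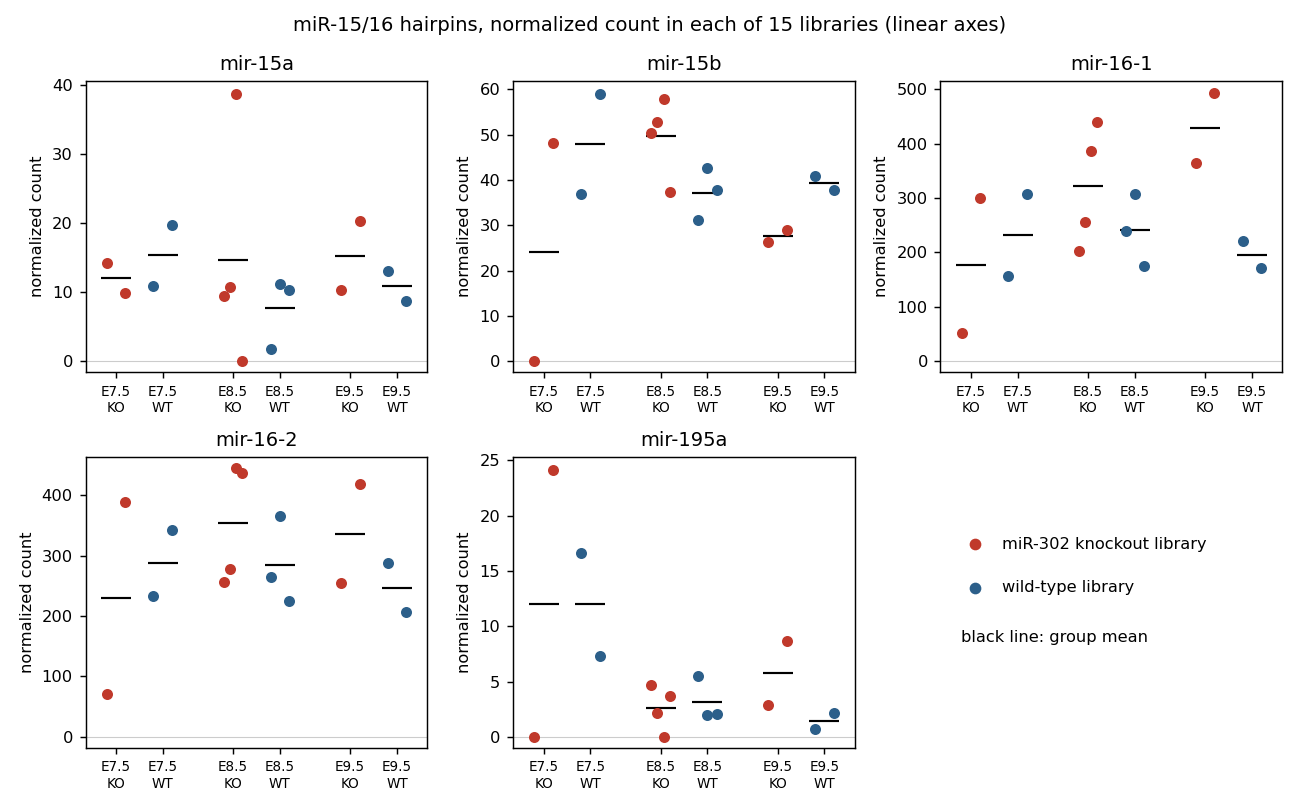
Normalized count of each miR-15/16 hairpin in each library, on linear axes, with KO left of WT at each stage and a black line at the group mean. The low KO point at E7.5 is replicate 1, with 52.4 for mir-16-1, 71.5 for mir-16-2 and 0 for mir-15b and mir-195a, and at E9.5 both KO points of mir-16-1 (365 and 493) lie above both WT points (221 and 171).

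mir-16-1, in the Dleu2 cluster, had 52.4 and 300.3 normalized counts in the E7.5 KO embryos, against 156 and 307 in the WT embryos. At E8.5 it had 203, 257, 387 and 440.3 in the KO cells, against 239, 308 and 175 in the WT cells. At E9.5 it had 365 and 493 in the KO cells, against 221 and 171 in the WT cells. The groups overlapped at E7.5 and E8.5, and at E9.5 both KO libraries lay above both WT libraries. By group mean the order was E9.5 KO (429 ± 90.4, SD, n = 2), E8.5 KO (322 ± 110.3, n = 4), E8.5 WT (241 ± 66.4, n = 3), E7.5 WT (232 ± 106, n = 2), E9.5 WT (196 ± 35.7, n = 2) and E7.5 KO (176 ± 175, n = 2), and each neighbouring pair in that order overlapped.

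mir-16-2, in the Smc4 cluster, had 71.5 and 388 normalized counts in the E7.5 KO embryos, against 233 and 341 in the WT embryos. At E8.5 it had 256, 277, 445 and 437 in the KO cells, against 265, 365 and 224 in the WT cells. At E9.5 it had 254 and 418 in the KO cells, against 288 and 206 in the WT cells. KO and WT overlapped at all 3 stages. Group means ran from 354 ± 101 (E8.5 KO, SD, n = 4) through 336 ± 116 (E9.5 KO, n = 2), 287 ± 76.8 (E7.5 WT, n = 2), 285 ± 72.3 (E8.5 WT, n = 3) and 247 ± 58.2 (E9.5 WT, n = 2) to 230 ± 224 (E7.5 KO, n = 2), and no neighbouring pair was apart.

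mir-15b, the neighbour of mir-16-2, had 0 and 48.2 normalized counts in the E7.5 KO embryos, against 36.9 and 58.9 in the WT embryos. The 0 was 0 of 24084 reads, which allows up to 7.15 normalized counts (3 reads). At E8.5 it had 50.5, 52.9, 58.0 and 37.3 in the KO cells, against 31.2, 42.7 and 37.8 in the WT cells. The value of 58.0 was 3 reads of the shallowest library, and the groups overlapped. At E9.5 it had 26.4 and 29.0 in the KO cells, against 41.0 and 37.7 in the WT cells, so both KO libraries lay below both WT libraries. The order of group means was E8.5 KO (49.7 ± 8.82), E7.5 WT (47.9 ± 15.6), E9.5 WT (39.4 ± 2.30), E8.5 WT (37.2 ± 5.74), E9.5 KO (27.7 ± 1.84) and E7.5 KO (24.1 ± 34.1), and of the neighbours only E8.5 WT and E9.5 KO did not overlap.

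mir-15a, the neighbour of mir-16-1, was near the detection limit of the shallower libraries. It had 14.3 and 9.86 normalized counts in the E7.5 KO embryos, against 10.9 and 19.8 in the WT embryos. At E8.5 it had 9.46, 10.7, 38.7 and 0 in the KO cells, against 1.84, 11.2 and 10.3 in the WT cells. The 38.7 was 2 reads, and the 0 allows up to 11.2. At E9.5 it had 10.3 and 20.3 in the KO cells, against 13.1 and 8.73 in the WT cells. KO and WT overlapped at every stage, with group means between 7.77 ± 5.16 (E8.5 WT) and 15.3 ± 6.25 (E7.5 WT).

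mir-195a, on chromosome 11, was the lowest of the 5 and reached 10 normalized counts in only 2 libraries, both at E7.5, through which it passed the filter on low values. It had 0 (which allows up to 7.15) and 24.1 in the E7.5 KO embryos, against 16.6 and 7.32 in the WT embryos. At E8.5 it had 4.73, 2.14, 0 and 3.73 in the KO cells, against 5.51, 2.03 and 2.06 in the WT cells. The 4 KO cell libraries held 7 reads of it in all, and the 0 of the shallowest one allows up to 58.0. At E9.5 it had 2.93 and 8.70 (2 and 3 reads) in the KO cells, against 0.735 and 2.18 in the WT cells. The highest values were at E7.5, and group means elsewhere were 1.46 to 5.82.

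All 5 hairpins passed that filter, which asked for 10 normalized counts or more in 2 or more libraries, as did 299 hairpins in all. The test was limma on log2(normalized count + 1) with all 15 libraries in 1 fit, differences are on that scale with standard errors (SE), and p-values were adjusted over the 299 hairpins by the Benjamini-Hochberg method. Bulk libraries cannot tell fewer cells that express a microRNA apart from less of it per cell.

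The first question was whether loss of miR-302 went with a change of the family at E7.5. With all libraries the 5 hairpins were lower in KO, except that mir-195a stood at 0.11 in edgeR and 0.16 in DESeq2, and none passed the threshold of 0.05, where 2.68% of all tested hairpins did. mir-15b had the largest difference (-2.76 ± 1.23, SE, 95% interval -5.41 to -0.12, limma adjusted p = 0.461), and it was the only member with an unadjusted p below the threshold, as 9.36% of all hairpins had. mir-16-1 differed by -0.79 ± 0.69 (adjusted p = 0.983) and mir-16-2 by -0.75 ± 0.65 (adjusted p = 0.983). The median member difference was -0.79, against -0.25 over all hairpins. edgeR and DESeq2 on the recovered reads called 0 of 5 as well, with 0 at an unadjusted p below 0.05. KO and WT overlapped for each of the 5, whereas 30.8% of all hairpins had groups that did not overlap.

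These values rested on E7.5 KO replicate 1, except for mir-15a, which was lower in KO with that library (-0.29) and without it (-0.53). With either KO embryo library left out the KO group at E7.5 is 1 library, which the fit assumes to vary as the other groups do. Without replicate 1 mir-15b differed by 0.05 ± 0.69, mir-16-1 by 0.45 ± 0.58, mir-16-2 by 0.46 ± 0.52 and mir-195a by 1.05 ± 1.12, all 4 now higher in KO and none past the threshold (limma adjusted p = 1 each), which 6 of all 294 hairpins tested passed. Without KO replicate 2 instead, mir-16-1 (-2.04, limma adjusted p = 0.0481) and mir-16-2 (-1.96, 0.0343) passed, as did 26 of all 297 hairpins tested (8.75%). mir-15b was past the threshold in that fit too, but on a KO library with 0 reads of it, where the fitted size and p depend on the pseudocount, so nothing is read from them. The 2 KO embryo libraries differed from each other by -5.62 for mir-15b (replicate 1 minus replicate 2), the lowest of all 299 hairpins on 0 reads in replicate 1, and by -2.50 for mir-16-1 and -2.42 for mir-16-2, with a median of -0.18 over all hairpins. In the same direction mir-195a differed by -4.65, also on 0 reads in replicate 1, while mir-15a was higher in replicate 1 (0.49). Of the marker lists, 3 had sums at E7.5 that did not overlap between KO and WT. Vascular hairpins (3 of 3 detected) summed to 1268 to 1426 in KO and 207 to 952 in WT, epithelial hairpins (5 of 5) to 455 to 464 in KO and 506 to 999 in WT, and endoderm and liver hairpins (5 of 5) to 145 to 171 in KO and 172 to 218 in WT. The part of these lists in the result was not tested.

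In the Wnt1-Cre lineage cells at E8.5 the family showed no difference past the threshold between KO and WT, where 2.01% of all hairpins passed. mir-15b differed by 0.40 ± 0.94 (SE, 95% interval -1.62 to 2.42), mir-16-1 by 0.39 ± 0.52 (-0.74 to 1.51) and mir-16-2 by 0.30 ± 0.50 (-0.77 to 1.36), with limma adjusted p-values of 0.817 to 0.965 over the 5 members. No member had an unadjusted p below 0.05 in limma, where 8.36% of all hairpins had one, nor in edgeR or DESeq2. No member was free of overlap between the groups, against 11.4% of all hairpins. Without the 2 KO libraries under 10000 reads, mir-16-1 differed by -0.037 and mir-16-2 by -0.067. The KO and WT libraries that share the number 169 in their labels had 440.3 and 308 normalized counts of mir-16-1, 437 and 365 of mir-16-2, and 37.3 and 42.7 of mir-15b.

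At E9.5, in Sox10-positive cells, mir-16-1 was higher and mir-15b was lower in both KO libraries than in both WT libraries, but neither difference passed the test. mir-16-1 differed by 1.12 ± 0.69 (SE, 95% interval -0.35 to 2.60, limma adjusted p = 0.365), and by 0.34 with TMM scaling, 0.62 with library-sum scaling, 0.34 in edgeR and 0.93 in DESeq2. mir-15b differed by -0.49 ± 1.23 (-3.13 to 2.15, adjusted p = 0.857), and by -1.25, -0.98, -1.25 and -0.70 in the same 4, none of which passed for either hairpin. mir-16-2 differed by 0.42 ± 0.65 (adjusted p = 0.760), but by -0.36 with TMM scaling, -0.086 with library-sum scaling and -0.38 in edgeR. mir-15a (0.40 ± 1.37) turned to -0.32, -0.063 and -0.37 with TMM, library-sum scaling and edgeR. mir-195a differed by 1.39 ± 1.25 on 5 reads in KO and 12 in WT. The choice of scaling moved the median of all hairpins from 0.02 to -0.60 (TMM) and -0.36 (library sum).

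None of the 5 passed at E9.5, where 0.669% of all hairpins did. With all 15 libraries none had an unadjusted p below 0.05 in limma (17.1% of all hairpins), edgeR or DESeq2. KO and WT did not overlap for 3 of the 5 (mir-16-1 and mir-195a higher, mir-15b lower in KO), a share near that of all hairpins (62.9%). With the reads of both miR-16 copies added into 1 value, the difference was 0.78 ± 0.65 (limma adjusted p = 0.513). In the limma fit without E7.5 KO replicate 1, mir-16-1 at E9.5 had the same difference with an SE of 0.47 and an adjusted p of 0.222. The 2 KO libraries share 1 number in their labels and the 2 WT libraries another, so that number and genotype cannot be told apart. Marker sums at E9.5 did not overlap between KO and WT either, where 62.9% of all single hairpins did not. Neural hairpins (6 of 6 detected) summed to 513 to 1018 in KO and 102 to 170 in WT, and endoderm and liver hairpins (5 of 5) to 763 to 2361 in KO and 152 to 326 in WT. Vascular hairpins (3 of 3) summed to 377 to 806 in KO and 159 to 200.01 in WT, and epithelial hairpins (5 of 5) to 81.2 to 154 in KO and 17.5 to 22.0 in WT. Mesenchymal hairpins (5 of 5) summed to 676 to 747 in KO and 1630 to 1779 in WT. Red cell and blood hairpins (3 of 6 detected in KO and 2 of 6 in WT) summed to 8.70 to 14.7 in KO and 6.86 to 7.79 in WT, and mir-451a, mir-486b and mir-142a of that list were at 0 in all 15 libraries. Pluripotent hairpins (4 of 5 detected in KO and 5 of 5 in WT) summed to 2.90 to 19.1 in KO and 22.5 to 28.5 in WT. The part of these lists at E9.5 in the result was not tested.

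**Figure D2:**
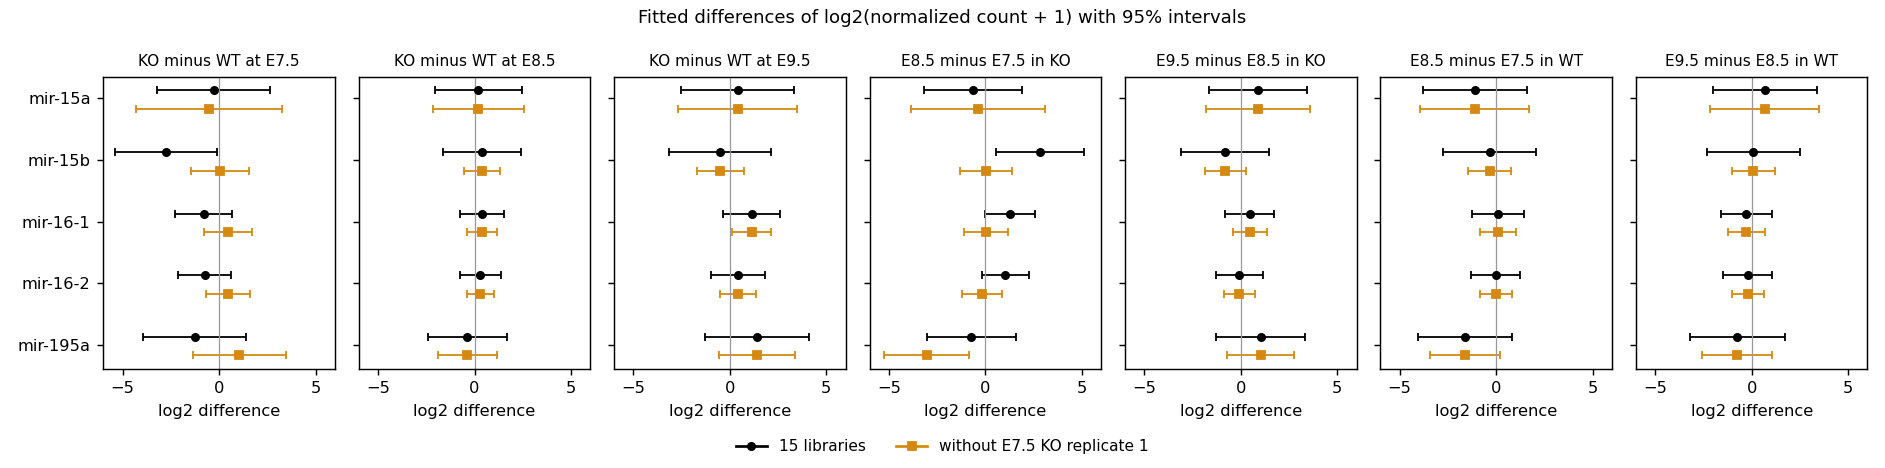
Fitted differences of log2(normalized count + 1) for the 5 hairpins with 95% intervals, for KO minus WT at 3 stages and for later minus earlier stage in KO and in WT, from all 15 libraries (black circles) and without E7.5 KO replicate 1 (orange squares). Leaving that library out moved mir-15b from -2.76 to 0.05 for KO minus WT at E7.5 and from 2.83 to 0.02 for E8.5 minus E7.5 in KO. The sizes with all libraries depend on the pseudocount, since that library had 0 reads of mir-15b.

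Between stages no member passed in WT. For E8.5 cells minus E7.5 embryos, 0 of 5 members passed in WT, against 18.4% of all hairpins, with differences from -1.63 ± 1.14 (mir-195a, SE) to 0.10 ± 0.63 (mir-16-1) and limma adjusted p-values of 0.399 to 0.991. The WT groups did not overlap for mir-195a, but that hairpin was kept only through its E7.5 values, so nothing is read from this. Of all hairpins 52.5% had WT groups that did not overlap, in either direction. For E9.5 minus E8.5 in WT, 0 of 5 passed, against 3.01% of all hairpins, and differences ran from -0.74 ± 1.14 (mir-195a) to 0.68 ± 1.25 (mir-15a). No member was free of overlap there, against 52.8% of all hairpins. In both WT comparisons limma, edgeR and DESeq2 gave 0 members an unadjusted p below 0.05, where limma gave it to 29.1% of all hairpins in the first and 14.4% in the second.

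In KO the larger stage differences again depended on E7.5 KO replicate 1. For E8.5 minus E7.5, 0 of 5 members passed, against 31.1% of all hairpins, with mir-15b at 2.83 ± 1.06 (SE, limma adjusted p = 0.0570), mir-16-1 at 1.28 ± 0.59 (0.123) and mir-16-2 at 1.03 ± 0.56 (0.181). The unadjusted p was below 0.05 for 2 of 5 in limma, against 40.1% of all hairpins, and for 0 in edgeR and DESeq2. No member was free of overlap, against 40.5% of all hairpins. mir-15b and mir-16-1 passed with TMM scaling (limma adjusted p = 0.0376 and 0.0473), as did 86 of all 292 hairpins tested (29.5%). Those 2 with mir-16-2 passed with library-sum scaling (0.0204, 0.0204 and 0.0294), as did 92 of all 290 (31.7%). The median of all hairpins was -0.60 in the main scaling, -0.29 with TMM and -0.041 with library-sum scaling. Without E7.5 KO replicate 1 the differences of the 3 were 0.02, 0.03 and -0.18, none past the threshold, where 69 of all 294 hairpins tested passed (23.5%). mir-195a was past it in that fit (limma adjusted p = 0.0475), but against 1 library at E7.5 and as a hairpin kept only through its E7.5 values, so it is not read as a change. Without replicate 2, mir-16-1 (2.53) and mir-16-2 (2.24) passed, as did 82 of all 297 hairpins tested (27.6%), and so did mir-15b, on the library with 0 reads of it.

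For E9.5 minus E8.5 in KO, 0 of 5 passed, against 27.1% of all hairpins, and limma (39.5% of all hairpins), edgeR and DESeq2 gave no member an unadjusted p below 0.05. mir-15b was lower at E9.5 in both libraries than in all 4 at E8.5 (-0.80 ± 1.06, SE, limma adjusted p = 0.608), an absence of overlap that 39.5% of all hairpins had. mir-16-1 differed by 0.47 ± 0.59, but by -0.075 with TMM and -0.38 with library-sum scaling, while the median of all hairpins was 0.40, 0 and -0.072 in the same 3 scalings. The test of whether the KO effect differed between stages called 0 of 5, against 2.34% of all hairpins, with limma adjusted p-values of 0.471 to 0.960 and 0 at an unadjusted p below 0.05 in limma (12% of all hairpins), edgeR or DESeq2. Without E7.5 KO replicate 2 it called mir-16-1 (limma adjusted p = 0.0437) and mir-15b, the second on a KO embryo library with 0 reads, and 23 of all 297 hairpins tested (7.74%).

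Over 50% of the miR-16 reads were listed under mir-16-1 in the E9.5 KO cells, and under 50% in 12 of the other 13 libraries. This split between the 2 hairpins was chosen for description after its values were seen. Of the miR-16 reads, those listed under mir-16-1 made up 59.0% (95% interval 54.1% to 63.7%) and 54.1% (48.5% to 59.7%) in the E9.5 KO cells, against 43.5% (41.8% to 45.1%) and 45.4% (42.5% to 48.2%) in the WT cells. In the E7.5 embryos the share was 42.3% and 43.6% in KO and 40.2% and 47.3% in WT. In the E8.5 cells it was 44.3%, 48.1%, 46.5% and 50.2% in KO and 47.4%, 45.8% and 43.9% in WT. The E9.5 KO libraries were thus the highest 2 of the 15, and the mean difference from WT was 12.2 percentage points. The two-sided exact permutation test gave p = 0.333 at E9.5, the smallest that 2 against 2 libraries allow, p = 0.4 at E8.5 and p = 1 at E7.5. The share is free of the scaling between libraries.

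**Figure D3:**
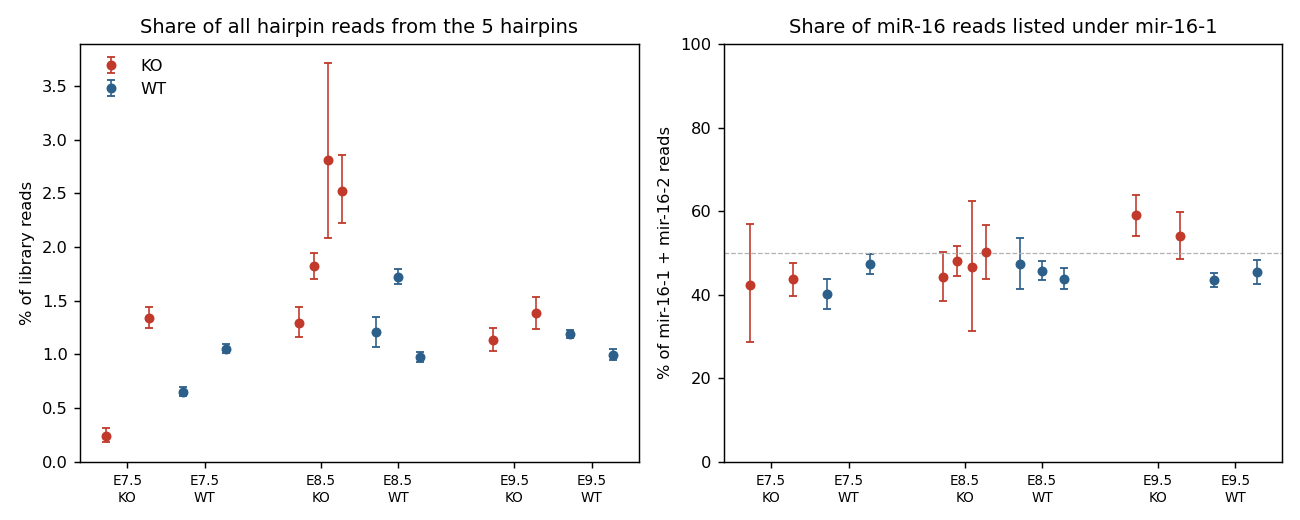
Share of all hairpin reads that came from the 5 hairpins (left) and share of miR-16 reads listed under mir-16-1 (right), per library with exact 95% binomial intervals, KO left of WT at each stage. The right panel shows the E9.5 KO libraries at 59.0% and 54.1%, above the dashed line at equal shares, and the left panel shows E7.5 KO replicate 1 at 0.241%.

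Of the reads listed under mir-15b and mir-16-2, mir-15b had a lower proportion in both KO libraries than in both WT libraries at E9.5. It made up 9.42% and 6.49% of the reads of mir-15b plus mir-16-2 in the KO cells, against 12.5% and 15.5% in the WT cells (two-sided exact permutation p = 0.333, the smallest possible). At E8.5 it made up 7.87% to 16.5% in KO and 10.5% to 14.4% in WT (exact permutation p = 0.743). At E7.5 it made up 0% (0 of 30 reads, which allows up to 10%) and 11.1% in KO and 13.7% and 14.7% in WT (exact permutation p = 0.333). Adjusted by the Benjamini-Hochberg method over these 6 exact permutation tests, 3 on each share, the p-values ran from 0.6 to 1. The smallest unadjusted p possible was 0.333 at E7.5 and E9.5 and 0.0571 at E8.5. None of the 6 tests could therefore pass the threshold, and the shares are given as description only.

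Among the reads of all 11 hairpins with the seed, nearly all that did not come from the family came from mir-322, whose largest shares were in 3 of the 4 E7.5 libraries. The 5 members made up 69.9% and 81.6% of the seed's reads in the E7.5 KO embryos, against 80.3% and 94.7% in the WT embryos. They made up 94.3% to 98.7% in KO and 96.7% to 97.2% in WT at E8.5, and 94.1% to 96.0% in KO and 91.8% to 92.9% in WT at E9.5. mir-322, from a chromosome X cluster with mir-503, had 59.6 and 174 normalized counts in the E7.5 KO embryos, against 111 and 41.4 in the WT embryos. Its 4 E8.5 KO libraries had 7.86 to 31.5, and the 3 E8.5 WT libraries 12.9 to 24.1. At E9.5 it had 39.6 and 40.6 in KO, against 49.8 and 32.4 in WT. mir-322 was lower in the E8.5 cells than in the E7.5 embryos in KO (-2.42 ± 0.70, SE, limma adjusted p = 0.0160), where 31.1% of all hairpins passed. It did not pass in limma with library-sum scaling (adjusted p = 0.0677), with the replicate number as a block (0.0537) or in the compared groups alone (0.0901). Without E7.5 KO replicate 2, which leaves 1 library in that group, the difference was -1.65. In WT mir-322 differed by -1.97 ± 0.73 (limma adjusted p = 0.0849), where 18.4% of all hairpins passed. Of the 28 alternatives run 1 passed, DESeq2 at -2.03 (adjusted p = 0.0133), which called 30.4% of all hairpins.

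**Figure D4:**
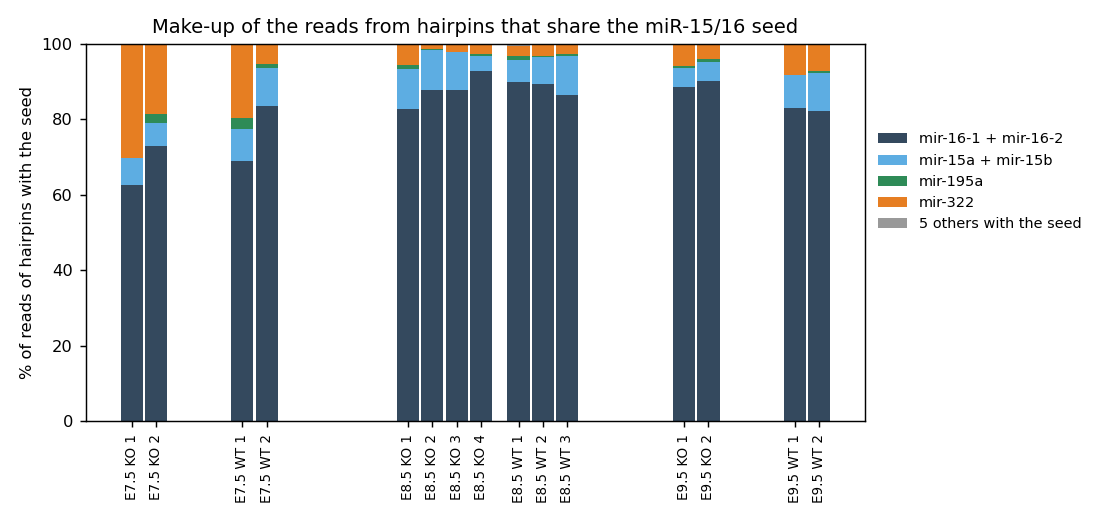
Reads of the hairpins that share the seed, as percentages within each library, with KO libraries left of WT at each stage and colours for the hairpins. mir-322 (orange) takes 30.1% and 18.4% in the E7.5 KO embryos and 19.6% and 5.33% in the E7.5 WT embryos, and 1.29% to 8.11% in the other libraries.

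The other hairpins with the seed had 0 to 6 reads each. mir-497a, the cluster partner of mir-195a, and mir-195b were listed at 0 in all 15 libraries. The mir-497a hairpin lies whole within the mir-497b hairpin of the opposite strand, and mir-497b had 7 reads in 2 libraries. mir-6353 had 6 reads, and mir-6342 and mir-6419 had 1 read each. mir-503, the cluster partner of mir-322, has another seed and was read in all 15 libraries (517 reads). It had 54.8 and 67.9 normalized counts in the E7.5 KO embryos, against 40.5 and 22.7 in the WT embryos (0.98 ± 0.91, SE, limma adjusted p = 0.989). At E8.5 it had 9.46, 31.4, 58.0 and 22.4 in the KO cells, against 7.35, 10.5 and 2.57 in the WT cells (1.90 ± 0.70, unadjusted p = 0.0165, limma adjusted p = 0.378). Its E9.5 values were 23.5 and 11.6 in the KO cells, against 16.6 and 17.2 in the WT cells (-0.026 ± 0.91, limma adjusted p = 0.990). KO and WT did not overlap at E7.5, as for 30.8% of all hairpins, overlapped at the later stages, and no difference passed. At E8.5 an unadjusted p below 0.05 in limma was had by 8.36% of all hairpins.

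The hairpins whose profile was most like the family's summed level were named by Pearson's r of log2(normalized count + 1) over the 15 libraries, among 87 tested hairpins with a mean of at least 100. They were mir-30c-2 (r = 0.76), mir-92b (0.68), mir-92a-1 (0.68), mir-92a-2 (0.61) and mir-30c-1 (0.61). Without E7.5 KO replicate 1 the values were 0.20, 0.14, -0.30, -0.33 and 0.15, so the likeness rested on that library, and mir-101b was then first with r = 0.60. In the authors' deposited table of 7 Mfuzz clusters over 413 microRNAs, mir-15a and mir-15b were in cluster 3, mir-16-1 and mir-16-2 in cluster 6 and mir-195a in cluster 5.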

How the data were processed

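Small RNA libraries were made with a NEXTflex kit, per the labels' protocols. The submitters' processing notes name FastQC 0.11.5, STAR 2.7.0f and the build mm10 (the GRCm38 assembly). Which tool counted the reads or set the size factors is not given in the sources used here. Signal in the deposited table is a normalized count, in which the authors had scaled each library's reads by 1 size factor. Every value above 0 (100% of 6086) was a whole multiple, within 0.001, of the worth of 1 read, which gave back the reads per hairpin. Their sum in a library was taken as its depth. The cluster number in the authors' deposited Mfuzz table is an other unit and served as a label. In the deposited sheets 1 column matched no sample and was left out. The 2108 rows for mature arms held no reads.

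The main test was limma 3.58.1 in R 4.3.3, with lmFit and a trended eBayes, two-sided, on log2(normalized count + 1). It fitted 6 group means to 15 libraries, and Benjamini-Hochberg adjustment covered the 299 hairpins with 10 normalized counts or more in 2 or more libraries. The code was first tested on simulated data. Differences on this scale can understate the change of low hairpins, but where a library had 0 reads their size depends on the pseudocount. The mir-15b differences that used the E7.5 KO embryos were larger than in edgeR and DESeq2. Alternatives on the recovered reads used edgeR 4.0.16 with its quasi-likelihood test and DESeq2 1.42.0. Further ones were TMM and library-sum scaling, a lower limit of 50 or none, a pseudocount of 10, the compared groups alone, the replicate number as a block, the label code as a random block, only libraries of 10000 reads or more, miR-16 copies summed, and each library left out in turn. Copy shares were compared by exact permutation.

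Counts of every replicate pair differed beyond sampling noise, with a chi-square of 2.07 to 171 per degree of freedom, and all libraries were kept. The labels do not say whether libraries of a group came from separate litters. The p-values therefore measure only spread between these libraries, which may be technical. The members, relatives, marker lists and the rule for named hairpins (members, relatives by seed or cluster, and the 5 most alike by correlation) were chosen with earlier results of these data known. Sequences are from RefSeq (GRCm38.p6).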

Additional observations from a re-analysis of the deposited data

How the results depend on the processing

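The count of members past the threshold was 0 in all 8 comparisons and stayed 0 under the alternatives run, with these exceptions. For E8.5 minus E7.5 in KO it was 2 with TMM scaling and 3 with library-sum scaling, and 0 to 3 with 1 library left out. For KO minus WT at E7.5 it was 0 to 3, and for the test between stages 0 to 2, with 1 library left out. The cause was not tested. For KO minus WT at E7.5, mir-195a turned to 0.11 in edgeR and 0.16 in DESeq2, and with 1 library left out mir-15b ran from -5.57 (set by the pseudocount, since the library kept has 0 reads) to 0.046, mir-16-1 from -2.04 to 0.45, mir-16-2 from -1.96 to 0.46, mir-195a from -1.82 to 1.05 and mir-15a from -0.69 to 0.11. At E8.5, mir-15a turned to -0.020 (TMM), mir-195a to 0.087 (edgeR) and 0.23 (DESeq2), and with at least 10000 reads mir-16-1 gave -0.037, mir-16-2 -0.067 and mir-195a 0.11, while leaving out 1 library gave mir-15a -0.56 to 1.21 and mir-195a -0.67 to 0.17. At E9.5, TMM, library-sum scaling and edgeR gave mir-15a -0.32, -0.063 and -0.37 and mir-16-2 -0.36, -0.086 and -0.38, and leaving out 1 library gave mir-15a -0.055 to 0.86. For E8.5 minus E7.5 in WT, the same 3 gave mir-15b 0.22, 0.30 and 0.18 and mir-16-2 0.54, 0.63 and 0.50 (DESeq2 0.11), and leaving out 1 library gave mir-16-1 -0.39 to 0.58, mir-15b -0.66 to 0.0017 and mir-16-2 -0.29 to 0.26. For E9.5 minus E8.5 in WT, leaving out 1 library gave mir-15a -0.0025 to 1.05, mir-15b -0.030 to 0.19 and mir-16-2 -0.44 to 0.048. In KO, E8.5 minus E7.5 gave mir-15a 0.22 in edgeR and, with 1 library left out, -1.38 to 0.39, and mir-16-2 -0.18 to 2.24. E9.5 minus E8.5 gave mir-16-1 -0.075 (TMM), -0.38 (library sum) and -0.100 (edgeR), mir-15a -0.11 (edgeR) and, with 1 library left out, -0.13 to 1.64, and mir-16-2 0.29 with at least 10000 reads and -0.43 to 0.29 with 1 library left out.

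Same-numbered KO and WT libraries correlated in their deviations from the group means at -0.23 (E7.5), 0.14, 0.13 and 0.09 (E8.5) and 0.19 (E9.5), so the numbers were not taken as pairs, though at E8.5 3 of 3 KO libraries correlated best with their own number. With the replicate block no member passed, mir-16-2 for E9.5 minus E8.5 in KO turned to 0.089, and calls over all hairpins went to 1 in place of 9 for E9.5 minus E8.5 in WT, 1 in place of 2 for KO minus WT at E9.5 and 4 in place of 7 for the test between stages. With the E7.5 WT numbers crossed, a choice made after seeing the data as was the separate account without E7.5 KO replicate 1, KO minus WT at E7.5 called 8 of all hairpins, as without the block. The count of all hairpins past the threshold moved by over 1.5 times in these settings. For KO minus WT at E7.5 (8) it was 4 with library-sum scaling, a minimum of 50, edgeR or DESeq2, 18 with no filter, 0 in the compared groups alone, 26 without KO replicate 2, and 4 and 3 without WT replicate 1 and 2. For KO minus WT at E8.5 (6) it was 10 in DESeq2. For KO minus WT at E9.5 (2) it was 1 to 12 across tools, scalings and filters, 0 in the compared groups alone or without WT replicate 1, and 4 without KO replicate 1. For E8.5 minus E7.5 in WT (55) it was 35 with a minimum of 50, 83 in the compared groups alone, 91 in DESeq2 and 29 without E7.5 WT replicate 1, and in KO (93) it was 58 in the compared groups alone. For E9.5 minus E8.5 in WT (9) it was 4 with no filter, 17 with a pseudocount of 10 or at least 10000 reads, 45 in the compared groups alone, 30 in edgeR, 37 in DESeq2, 19 without E8.5 KO replicate 3 and 1 without any 1 of the 5 libraries compared. In KO (81) it was 49 with no filter, 11 in the compared groups alone, and 51 and 13 without E9.5 replicate 1 and 2. For the test between stages (7) it was 3 with either scaling, 12 with no filter or a pseudocount of 10, 4 in edgeR, 23 when KO replicate 2 of E7.5 was left out, and 4 when WT replicate 2 of E7.5 or KO replicate 1 of E9.5 was. Depth limited mir-15a and mir-195a most, since 1 read was worth up to 19.3 normalized counts.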
